A study of Homo sapiens with 16 samples.

Results

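GALNT genes encode the polypeptide GalNAc-transferases, the enzymes that start mucin-type O-glycosylation, and 10 of them are described here in spheroids of 3 prostate cancer cell lines: GALNT1, GALNT2, GALNT3, GALNT4, GALNT6, GALNT7, GALNT10, GALNT11, GALNT12 and GALNT18. They are 10 of the 20 genes of the family and 10 of the 62703 genes in the count table. The genes were listed by symbol with their control levels and their siMED12 effects already known, including a rise of GALNT3 in LNCaP and 22Rv1 that was part of the choice. Accordingly the siMED12 values of the 10 genes are given as a description, without p-values for single genes. Where calls among them are counted, nothing is read from the counts. Differences between control spheroids of the lines, which were not what the genes were listed for, are given with a test, but the levels had been seen and the p-values are not independent support.

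The samples were 16 libraries from LNCaP, 22Rv1 and PC3, established lines derived from metastases or a xenograft of prostate cancer. LNCaP depends on androgen, 22Rv1 responds to androgen, and PC3 lacks the androgen receptor. Cells were transfected with 25 pmol of an siRNA pool against MED12, which belongs to the kinase part of the Mediator complex (siMED12), or of a pool without a target (siCtrl). They grew for 3 days in 2D and 4 days as spheroids, and both arms of every line went through the same lipofection. Every line had 3 siCtrl libraries, while siMED12 had 3 in LNCaP and only replicates 1 and 3, thus 2, for 22Rv1 and for PC3. The study's methods speak of biological replicates in general, but nothing in the labels states whether these libraries came from separate cultures, so that the spread between them may be technical. Each condition stands for 1 line and for transient knockdown by 1 pool of siRNAs.

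In mucin-type O-glycosylation a GalNAc-transferase moves N-acetylgalactosamine from UDP-GalNAc onto a serine or threonine of a protein passing through the Golgi. The sugar is then extended by core enzymes and capped by sialyltransferases. Some family members act on bare peptides, and others prefer substrates that already carry a GalNAc, so the set of enzymes in a cell bears on which sites are occupied. Mucins, CD44 and the LDL receptor are among the well-known carriers in epithelial cells.

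To show sequence around annotated starts, promoters of genes that the results turn on follow 5′ to 3′. They belong to GALNT3, which moved with siMED12, GALNT2, the most abundant member in LNCaP and PC3, and GALNT12, counted in siCtrl only in PC3. They are RefSeq sequences on GRCh38.p14, with 250 bases before and 50 after an annotated start. They span chr2:165794198-165794497 on the minus strand for GALNT3, chr1:230066988-230067287 on the plus strand for GALNT2 and chr9:98807420-98807719 on the plus strand for GALNT12. Capitals mark the GC box GGGCGG on either strand.
GALNT3: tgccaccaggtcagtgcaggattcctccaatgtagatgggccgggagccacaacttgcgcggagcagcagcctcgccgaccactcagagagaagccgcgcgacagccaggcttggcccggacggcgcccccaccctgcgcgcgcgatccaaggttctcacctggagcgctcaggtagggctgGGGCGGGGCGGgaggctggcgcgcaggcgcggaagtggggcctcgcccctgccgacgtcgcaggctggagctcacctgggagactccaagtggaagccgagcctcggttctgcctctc
GALNT2: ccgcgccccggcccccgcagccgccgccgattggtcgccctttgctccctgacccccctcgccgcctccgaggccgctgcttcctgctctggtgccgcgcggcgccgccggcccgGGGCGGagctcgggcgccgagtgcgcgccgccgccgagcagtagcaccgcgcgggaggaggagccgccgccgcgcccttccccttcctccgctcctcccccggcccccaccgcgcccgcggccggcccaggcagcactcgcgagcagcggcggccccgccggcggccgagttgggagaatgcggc
GALNT12: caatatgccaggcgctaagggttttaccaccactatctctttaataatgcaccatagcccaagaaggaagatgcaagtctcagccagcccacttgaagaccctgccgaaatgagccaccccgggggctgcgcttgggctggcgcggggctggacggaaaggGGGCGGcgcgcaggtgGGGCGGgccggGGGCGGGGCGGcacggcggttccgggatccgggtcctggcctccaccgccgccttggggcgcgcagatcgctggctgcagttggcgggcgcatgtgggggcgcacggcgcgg

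Of the 10 genes, 7 had at least 1 promoter in this collection, with 9 promoters in all, and GALNT4, GALNT6 and GALNT18 had none. The 3 printed sequences had GC contents of 70%, 82% and 68.7%, against a median of 58.7% over 35116 promoters of the same length, and 28, 51 and 29 CpG dinucleotides, against a median of 14. GALNT3 carried 2 GC boxes that overlap by their last and first base, GALNT2 carried 1 and GALNT12 carried 4, and 45% of all promoters held at least 1. The window of GALNT11 had 51.3% GC, 2 CpG and no GC box. It spans 152074787 to 152075086 on chromosome 7, inside the gene, which begins at 152025674, so it does not describe the gene's first start. Those printed for GALNT2 and GALNT3 also lie within their genes, which begin at 230057990 and, on the minus strand, at 165794659. Searched on both strands, the E-box CACGTG, the TATA box TATAAA and the steroid receptor half-site AGAACA did not occur in any of the 9 windows, and 7.26%, 11.5% and 14.8% of all promoters held them. A match is a description of letters, and no factor was measured here.

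Libraries held 479118 to 993807 counts (median 764494), one 3′ tag per counted fragment, so a level in CPM, the count scaled to a common library size, does not scale with transcript length and may be compared between genes. A count of 0 in a library still allowed 3 counts, which was 3.15 to 6.22 CPM, for counting error only. The targeted gene MED12 was read at 5 to 22 counts. It stood at 9.94, 12.9 and 11.7 CPM in LNCaP siCtrl and 6.99, 6.67 and 10.3 CPM in siMED12, at 23.4, 16.7 and 19.2 CPM and 7.42 and 8.98 CPM in 22Rv1, and at 28.4, 8.41 and 18.8 CPM and 15.8 and 14.5 CPM in PC3. Only in 22Rv1 were the groups apart, and its log2 difference after siMED12 was -0.50 for LNCaP, -1.28 for 22Rv1 (SE 0.46 for both) and -0.22 for PC3 (SE 0.43), none of which passed (adjusted p = 0.878, 0.175 and 0.987, edgeR quasi-likelihood test). At these counts a loss of MED12 transcript did not pass for any line, with an unadjusted p of 0.00836 for 22Rv1. The study itself reports a highly efficient knockdown of MED12, both in mRNA and protein of transfected cells and in its spheroids. Among androgen-regulated markers, the kallikrein KLK3 stood at 1540 to 2561 CPM in LNCaP, 10.3 to 35.1 CPM in 22Rv1 and 6.59 to 58.1 CPM in PC3. The PC3 markers VIM, CAV1, CD44, ANXA1, LGALS1 and S100A6 summed to 3058 to 3988 CPM in PC3 and 49.4 to 413 CPM in the other lines. One library stood apart in 22Rv1: in siMED12 replicate 3, 10 genes restricted to PC3 in the siCtrl libraries reached 3.29% of their PC3 level, against at most 0.176% in the other 22Rv1 libraries. In PC3 siMED12 replicate 3, 2 genes restricted to 22Rv1 reached 3.95% of their 22Rv1 level, against 0% to 1.38% in the other PC3 libraries. The siMED12 values of the enzymes without these libraries are given further on.

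The first question was which of the enzymes these spheroids make. In siCtrl, GALNT2, GALNT3, GALNT11 and GALNT1 led in LNCaP, GALNT11, GALNT2 and GALNT1 led in 22Rv1, and GALNT2 alone made up 53.2% of the summed level in PC3. The sum over the 10 genes was 291 ± 26.9 CPM (SD, n = 3) in LNCaP, 200 ± 12.3 CPM (n = 3) in 22Rv1 and 511 ± 52.2 CPM (n = 3) in PC3, and the ranges of the lines did not overlap. Of the 10 genes, 7 were counted in every siCtrl library, GALNT6 and GALNT12 passed the filter on low counts through PC3 alone, and GALNT4 was not counted. A bulk level cannot tell fewer cells making a transcript from less transcript per cell.

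**Figure D1:**
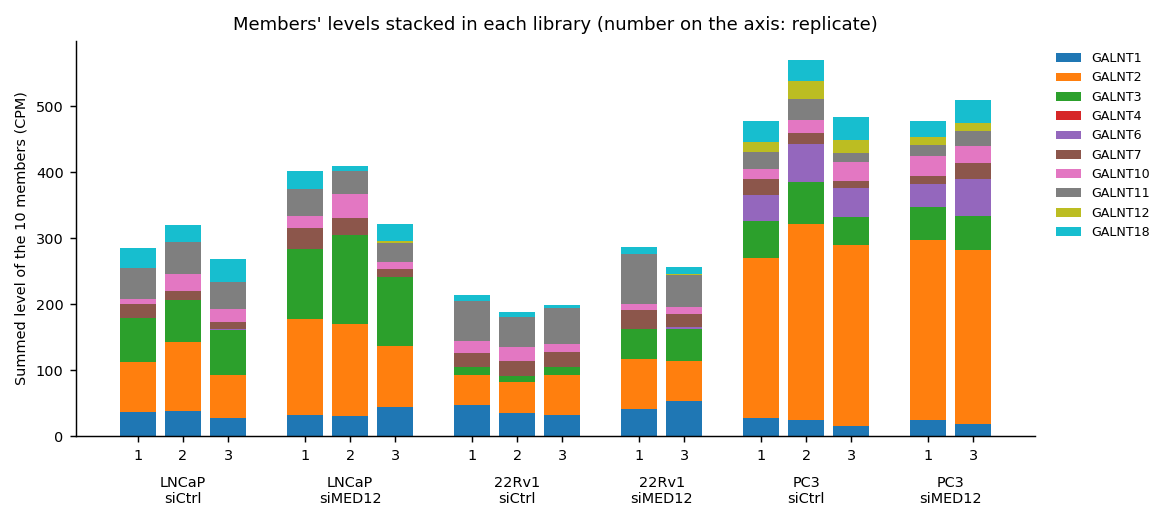
Stacked levels (CPM, vertical axis) of the 10 GALNT genes in each of the 16 libraries, grouped by line and treatment, with the replicate number under each bar. GALNT2 fills on average 53.2% of the PC3 siCtrl bars, while the GALNT3 segment is thinnest in the 22Rv1 siCtrl bars, at 5.31% to 6.45% of the sum.

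GALNT2 (ENSG00000143641, GRCh38 chromosome 1, 230057990 to 230282122, plus strand) is a widely made initiating enzyme whose known substrates include plasma lipoprotein regulators. Its siCtrl levels were 76.2, 105 and 65.7 CPM in LNCaP, 45.5, 46.8 and 60.3 CPM in 22Rv1, and 243, 296 and 275 CPM in PC3. PC3 lay far above both other lines, with log2 differences of 1.74 (SE 0.17, adjusted p = 4.6e-10) against LNCaP and 2.40 (SE 0.19, adjusted p = 2.0e-12) against 22Rv1. 22Rv1 lay below LNCaP by a smaller margin, -0.67 (SE 0.22, adjusted p = 0.0146), and this call was lost without LNCaP siCtrl replicate 2 or without 22Rv1 siCtrl replicate 1 (highest adjusted p 0.156). Where differences between lines are tested, 43.2% of the 10566 genes passed for 22Rv1 against LNCaP, 54.7% for PC3 against LNCaP and 54.9% for PC3 against 22Rv1.

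GALNT3 (ENSG00000115339, chromosome 2, 165747588 to 165794659, minus strand) is known for glycosylating FGF23, the phosphate-regulating hormone, and thereby protecting it from cleavage. In siCtrl it was read at 66.3, 63.0 and 67.8 CPM in LNCaP, 13.01, 10.0 and 12.8 CPM in 22Rv1, and 56.8, 63.1 and 41.9 CPM in PC3. Thus 22Rv1 was the low line, with a log2 difference of -2.43 (SE 0.27, adjusted p = 7.9e-09) against LNCaP, and PC3 minus 22Rv1 was 2.16 (SE 0.27, adjusted p = 6.3e-08). LNCaP and PC3 overlapped, and their difference of -0.27 (95% interval -0.66 to 0.13, adjusted p = 0.249) did not pass.

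GALNT1 (ENSG00000141429, chromosome 18, 35581117 to 35711834, plus strand), the other widely made initiating enzyme, was read at 36.4, 38.7 and 27.6 CPM in LNCaP, 46.8, 35.1 and 32.1 CPM in 22Rv1, and 27.1, 25.2 and 15.9 CPM in PC3. Every PC3 siCtrl library was below every siCtrl library of the other lines. PC3 minus 22Rv1 was -0.72 (SE 0.27, adjusted p = 0.0250), a call lost without 22Rv1 siCtrl replicate 1 or PC3 siCtrl replicate 3, under DESeq2 and without the filter on low counts, and PC3 minus LNCaP was -0.54 (95% interval -1.10 to 0.03, adjusted p = 0.102), which passed only without LNCaP siCtrl replicate 3 (adjusted p = 0.0485). GALNT11 (ENSG00000178234, chromosome 7, 152025674 to 152122340, plus strand), which is known to modify linkers of LDL receptor-related proteins and Notch1, was read at 46.4, 48.7 and 41.3 CPM in LNCaP, 61.2, 45.1 and 53.9 CPM in 22Rv1, and 25.8, 31.5 and 13 CPM in PC3. It was lowest in PC3, by -0.89 (SE 0.27, adjusted p = 0.00657) against LNCaP and -1.15 (SE 0.27, adjusted p = 4.9e-04) against 22Rv1. The former was lost without PC3 siCtrl replicate 3, the library with 13 CPM (adjusted p = 0.0581).

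GALNT6 (ENSG00000139629, chromosome 12, 51351247 to 51392867, minus strand), the closest relative of GALNT3, was read at 38.7, 57.8 and 43.3 CPM in PC3 siCtrl, at 0, 0 and 1 counts in LNCaP siCtrl and at 0 counts in each 22Rv1 siCtrl library. The ratio of PC3 to LNCaP was 107 with a counting interval of 18.8 to 4253 (exact binomial), and PC3 was at least 11.0-fold higher than 22Rv1, taking 3 counts in each library as the floor. Being measurable in PC3 was what put this gene past the filter, so no p-value is given.

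Enzymes that prefer peptides already carrying a GalNAc came next. GALNT7 (ENSG00000109586, chromosome 4, 173168811 to 173323967, plus strand) was read at 21.5, 14.3 and 11.7 CPM in LNCaP, 20.8, 21.7 and 23.1 CPM in 22Rv1, and 24.5, 16.8 and 11.6 CPM in PC3. The lines overlapped, and no difference passed (log2 differences of -0.30 to 0.52, adjusted p of 0.283 to 0.652). GALNT10 (ENSG00000164574, chromosome 5, 154190730 to 154420984, plus strand) was read at 8.28, 25.8 and 19.1 CPM in LNCaP, 18.2, 21.7 and 11.5 CPM in 22Rv1, and 15.5, 19.98 and 28.9 CPM in PC3. These ranges overlapped as well, with log2 differences of -0.11 to 0.33, and at 5 to 20 counts a library the 95% intervals reached -0.96 and 1.14.

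GALNT12 (ENSG00000119514, chromosome 9, 98807670 to 98850081, plus strand), an enzyme best known from colon, was read at 15.5, 27.3 and 20.2 CPM in PC3 siCtrl and at 0 counts in each of the other 6 siCtrl libraries. PC3 was at least 5.07-fold higher than LNCaP and at least 4.94-fold higher than 22Rv1. Like GALNT6 it passed the filter through PC3 and was not tested between lines. GALNT4 (ENSG00000257594, chromosome 12, 89519412 to 89524796, minus strand), which acts on the selectin ligand PSGL-1, was at 0 counts in all 16 libraries. Of its exon bases 93.4% lie within the readthrough gene POC1B-GALNT4 on the same strand, and all 50-base words of its last 500 bases recur there. That readthrough gene was also at 0 in all 16 libraries, and the part of this overlap in the zero counts was not tested.

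GALNT18 (ENSG00000110328, chromosome 11, 11270877 to 11622005, minus strand), a less studied member, was read at 29.8, 25.8 and 33.9 CPM in LNCaP, 7.81, 8.36 and 5.13 CPM in 22Rv1, and 31.0, 32.6 and 34.7 CPM in PC3. As for GALNT3, 22Rv1 was the low line, with -2.08 (SE 0.40) against LNCaP, and PC3 minus 22Rv1 was 2.20 (SE 0.39). At 4 to 10 counts in the 22Rv1 libraries, GALNT18 passed the filter on low counts through LNCaP and PC3, so no p-value is given for either difference. LNCaP and PC3 differed by 0.11 (95% interval -0.45 to 0.68), which did not pass.

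Among the 7 genes counted in every siCtrl library, none was higher and 3 were lower in 22Rv1 than in LNCaP, 1 was higher and 1 lower in PC3 than in LNCaP, and 3 were higher and 2 lower in PC3 than in 22Rv1. Of all tested genes 43.2%, 54.7% and 54.9% passed in these comparisons, in either direction, and nothing is read from the counts. Those that involve 22Rv1 include GALNT18, which passed the filter through LNCaP and PC3. The median log2 differences of the 7 genes were -0.11, 0.11 and 0.33, against 0, 0.05 and 0.01 over all tested genes. The 3′ ends were distinct: of the 50-base words in the last 500 bases of their transcripts, none recurred in another gene for 8 of the 10 members, while GALNT10 shared 2.43% with MFAP3 and GALNT4 is described above. Between 5.34% and 20.9% of the exon bases of GALNT2, GALNT6, GALNT7 and GALNT12 lie opposite exons of genes on the other strand, and whether the counting used strand is not given in the sources used here.

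**Figure D2:**
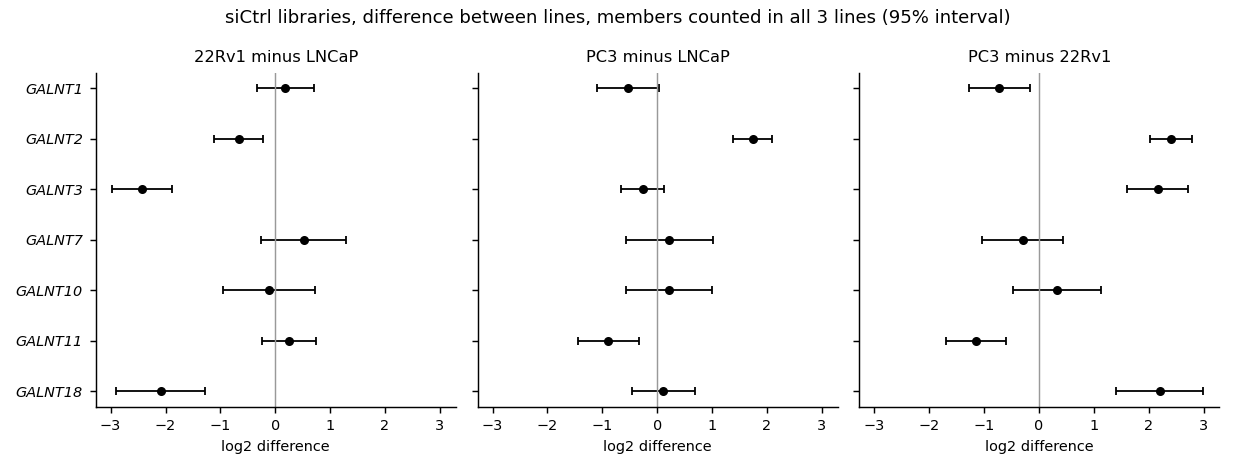
Log2 differences (horizontal axis) between the siCtrl libraries of the lines for the 7 GALNT genes counted in all 3 lines. Points are edgeR estimates and bars are 95% intervals. GALNT3 and GALNT18 lie at -2.43 and -2.08 in 22Rv1 minus LNCaP, and GALNT2 lies at 1.74 and 2.40 in the panels that take PC3 minus another line.

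Turning to knockdown, GALNT3 was the gene for which the group was assembled, and its values are a description. In LNCaP it went from 66.3, 63.0 and 67.8 CPM in siCtrl to 106, 136 and 105 CPM in siMED12, that is from 65.7 ± 2.46 to 116 ± 17.7 CPM (SD, n = 3 each). In 22Rv1 it went from 13.01, 10.0 and 12.8 CPM to 45.6 and 48.7 CPM, from 12.0 ± 1.67 (n = 3) to 47.2 ± 2.23 CPM (n = 2). PC3 held 56.8, 63.1 and 41.9 CPM in siCtrl and 50.1 and 51.8 CPM in siMED12. The groups were apart in LNCaP and 22Rv1 and overlapped in PC3. In LNCaP the androgen-regulated marker KLK2 fell, from 1634 to 2208 CPM in siCtrl to 771 to 1406 CPM in siMED12 (-0.89, SE 0.18, adjusted p = 0.0113), KLK3 went from 2397 to 2561 CPM to 1540 to 2154 CPM without passing (-0.44, SE 0.16, adjusted p = 0.418), and their part in the GALNT3 value was not tested. The log2 differences were 0.81 (SE 0.17, 95% interval 0.45 to 1.16) in LNCaP, 1.94 (SE 0.30, 1.33 to 2.56) in 22Rv1 and -0.10 (SE 0.24, -0.59 to 0.38) in PC3, or 1.75-fold, 3.85-fold and 0.930-fold. Under the 23 alternatives run, they stayed between 0.68 and 0.88 in LNCaP and between 1.78 and 2.00 in 22Rv1, and ran from -0.25 to 0.04 in PC3.

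By mean level the 6 groups ranked LNCaP siMED12, LNCaP siCtrl, PC3 siCtrl, PC3 siMED12, 22Rv1 siMED12 and 22Rv1 siCtrl. Neighbours from LNCaP siCtrl to PC3 siMED12 overlapped, whereas LNCaP siMED12 stood above and 22Rv1 siCtrl below all others. In 22Rv1 the level after siMED12 came close to that of PC3, and 22Rv1 siMED12 replicate 1, in which PC3-restricted genes were at 0.143% of their PC3 level, held 45.6 CPM. In replicate 3, a share of 3.29% of the PC3 siCtrl level would amount to 1.77 of the 48.7 CPM measured, and its part in that level was not tested.

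**Figure D3:**
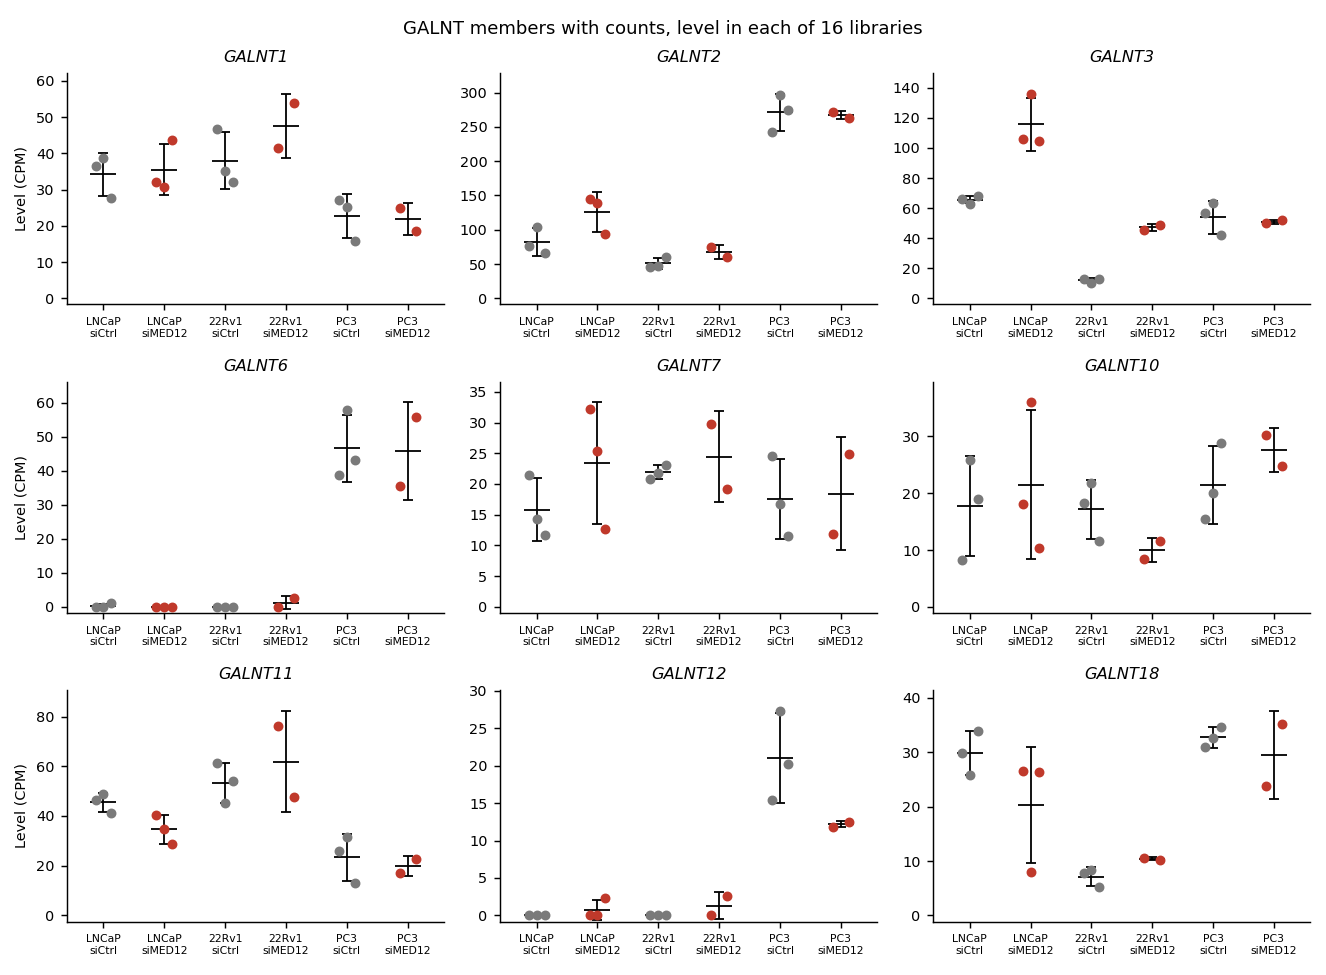
Level in CPM (vertical axes, each panel to its own scale) of the 9 GALNT genes with counts in 16 libraries, grey for siCtrl and red for siMED12. Black marks are means and bars 1 SD over 3 or 2 libraries. GALNT3 in siMED12 lies at 105 to 136 CPM in LNCaP and 45.6 to 48.7 CPM in 22Rv1, apart from the siCtrl libraries of those lines, and GALNT6 and GALNT12 lie near 0 outside PC3.

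GALNT2 in LNCaP went from 76.2, 105 and 65.7 CPM to 145, 139 and 93.1 CPM, with the lowest siMED12 library inside the siCtrl range. Its log2 difference was 0.62 (SE 0.19, 95% interval 0.23 to 1.00) in LNCaP. In 22Rv1 it was 45.5, 46.8 and 60.3 CPM in siCtrl and 75.3 and 60.3 CPM in siMED12, a log2 difference of 0.41 (SE 0.24). A share of 3.29% of its PC3 level would amount to 8.91 CPM in 22Rv1 siMED12 replicate 3, and its part in the 60.3 CPM there was not tested. PC3 stayed at 272 and 263 CPM against 243 to 296 CPM, a log2 difference of -0.02 (SE 0.17).

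The other initiating enzymes stood as follows. GALNT1 was 32.2, 30.7 and 43.7 CPM in LNCaP siMED12, 41.4 and 53.9 CPM in 22Rv1 siMED12 and 25.1 and 18.7 CPM in PC3 siMED12, each overlapping its siCtrl group, with log2 differences of 0.10, 0.30 and -0.04. Without the siMED12 replicate 3 library of the line they came to -0.09, 0.12 and 0.12, so that the direction turned in LNCaP and in PC3. GALNT11 in LNCaP siMED12 was 40.6, 34.7 and 28.7 CPM, below all siCtrl libraries, with a log2 difference of -0.39 (95% interval -0.92 to 0.13). In 22Rv1 it was 76.3 and 47.5 CPM, a difference of 0.22 that turned to -0.20 without siMED12 replicate 1, and in PC3 17.1 and 22.8 CPM, a difference of -0.32 (SE 0.39). GALNT6 was 35.6 and 56.0 CPM in PC3 siMED12, the lower of them below the siCtrl range and the other inside it, with a log2 difference of -0.10 (SE 0.30). Outside PC3 its siMED12 libraries had 0 counts except 2 counts in 22Rv1 replicate 3, which is 2.57 CPM where 3.29% of the PC3 level would be 1.53 CPM.

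Among the enzymes that prefer glycosylated peptides, GALNT7 was 32.2, 25.4 and 12.6 CPM in LNCaP siMED12 (log2 difference 0.58, SE 0.37), 29.7 and 19.2 CPM in 22Rv1 (0.18, SE 0.37, and -0.20 without siMED12 replicate 1) and 11.9 and 24.9 CPM in PC3 (-0.06, SE 0.45), and overlapped its siCtrl group in each line. GALNT10 was 8.48 and 11.5 CPM in 22Rv1 siMED12, the higher of which lay just under its lowest siCtrl library at 9 counts each, with a log2 difference of -0.76 (95% interval -1.81 to 0.29). It overlapped in LNCaP, at 18.2, 36.0 and 10.3 CPM (0.21, SE 0.39, and -0.38 without siMED12 replicate 2), and in PC3, at 30.3 and 24.9 CPM (0.41, SE 0.41). GALNT12 in PC3 siMED12 was 11.9 and 12.4 CPM, from 9 and 6 counts, below all siCtrl libraries, with a log2 difference of -0.82 (95% interval -1.83 to 0.20). In the other lines it had 2 counts in LNCaP siMED12 replicate 3 and 2 counts in 22Rv1 siMED12 replicate 3, and 0 in the other libraries.

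GALNT18 was 26.6, 8.01 and 26.4 CPM in LNCaP siMED12, so that its log2 difference of -0.55 (SE 0.31) came to -0.18 without replicate 2. It was 10.6 and 10.3 CPM in 22Rv1 siMED12, above all siCtrl libraries at 8 to 10 counts, with a log2 difference of 0.57 (95% interval -0.53 to 1.66), and 23.7 and 35.3 CPM in PC3 (-0.20, SE 0.33).

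The values that rest on the 2 libraries that stood apart were also read without them. Without 22Rv1 siMED12 replicate 3 the log2 differences in 22Rv1 were 1.90 for GALNT3, 0.56 for GALNT2, 0.50 for GALNT11, 0.44 for GALNT7, -0.97 for GALNT10 and 0.59 for GALNT18. Thus each kept its direction, and those of GALNT11 and GALNT7 were over 1.5 times as large. Without PC3 siMED12 replicate 3 those in PC3 were -0.12 for GALNT3, 0.00 for GALNT2, -0.49 for GALNT11, -0.41 for GALNT6, -0.57 for GALNT7, 0.52 for GALNT10, -0.84 for GALNT12 and -0.46 for GALNT18. Those of GALNT6, GALNT7, GALNT11 and GALNT18 lay further below 0 than with both libraries, and all of these rest on 1 siMED12 library.

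**Figure D4:**
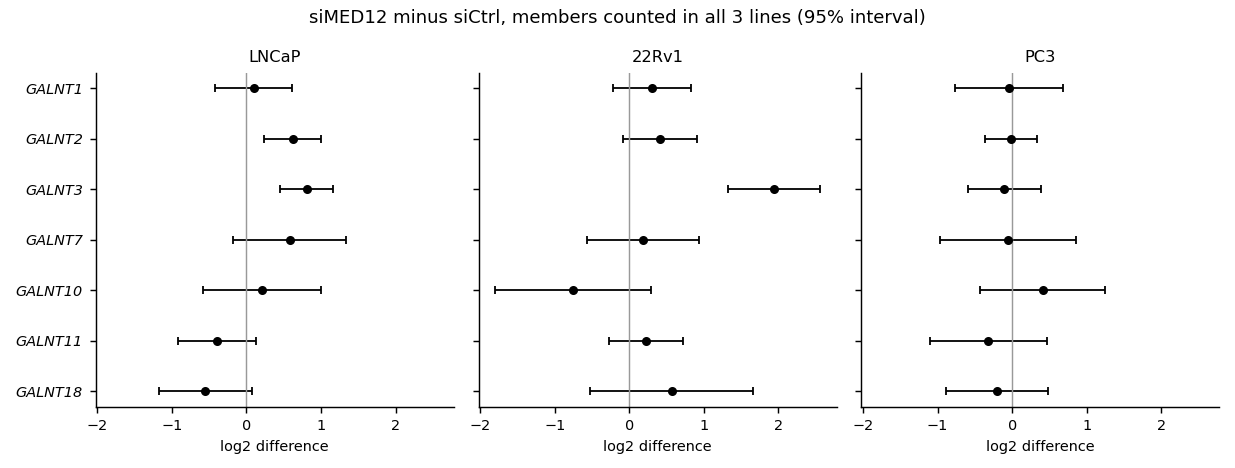
Log2 differences (horizontal axis), siMED12 minus siCtrl, for the 7 GALNT genes counted in all 3 lines, 1 panel per line. Points are edgeR estimates and bars 95% intervals. GALNT3 lies at 0.81 in LNCaP and 1.94 in 22Rv1, GALNT2 at 0.62 in LNCaP, and every interval in PC3 crosses 0.

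Counted by the adjusted edgeR p, 1 of the 9 members tested passed for LNCaP, 1 for 22Rv1 and 0 for PC3, where 0.416%, 1.84% and 0% of all tested genes passed. In LNCaP and 22Rv1 the gene was GALNT3, which the choice had fixed, so nothing is read from these counts. In PC3, where no gene passed, 527 genes and 0 members had an unadjusted p under 0.05, DESeq2 called 0 genes and limma 1. The LNCaP call of GALNT3 was lost under DESeq2 and limma and without any 1 of siCtrl replicates 1, 2 and 3 or siMED12 replicate 2. Groups of libraries did not overlap for 2 of 9 members in LNCaP (GALNT3 up, GALNT11 down), 3 in 22Rv1 (GALNT3 and GALNT18 up, GALNT10 down) and 1 in PC3 (GALNT12 down), against 12.6%, 26.6% and 20.7% of all tested genes. Over the 7 genes counted in all lines the median log2 difference was 0.21 in LNCaP, 0.30 in 22Rv1 and -0.06 in PC3, beside -0.00, 0.01 and -0.04 over all genes.

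The sum of the 10 genes was 378 ± 48.5 CPM (n = 3) in LNCaP siMED12, from 322 to 410 CPM against 268 to 321 CPM in siCtrl, and 272 ± 21.8 CPM (n = 2) in 22Rv1 siMED12, from 257 to 287 CPM against 189 to 213 CPM. In PC3 it was 494 ± 23.1 CPM (n = 2), from 477 to 510 CPM inside the siCtrl range of 477 to 571 CPM. These sums include GALNT3, whose rise was part of the choice, so nothing is read from them about the family. GALNT3 took 22.7% of the sum in LNCaP siCtrl and 30.7% in siMED12, 5.95% and 17.4% in 22Rv1, and 10.5% and 10.3% in PC3. In 22Rv1, GALNT11 had 26.5% of the sum in siCtrl. In 22Rv1 siMED12 replicate 1 it had 26.6% beside 26.2% for GALNT2, and in replicate 3 it had 18.5% beside 23.5%, so neither led in both.

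The rest of the family was then read. Of the 10 further genes, GALNT14 alone passed the filter on low counts, and it was again a PC3 gene, with 101, 84.1 and 103 CPM in PC3 siCtrl, 1 to 4 counts in LNCaP siCtrl and 0 to 2 in 22Rv1 siCtrl. At 95.8 ± 10.2 CPM (n = 3) it was the second most abundant family gene in PC3 after GALNT2, and siMED12 left it at 84.4 and 66.4 CPM (log2 difference -0.31, SE 0.24, adjusted p = 0.978). GALNT9, GALNT13 and GALNT16 reached at most 6 counts in a library, and GALNT5, GALNT17 and GALNTL6 at most 1. GALNT8, GALNT15 and GALNTL5 had 0 counts in all 16 libraries.

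To place the enzymes in their pathway, 73 genes around them were tested where counted: core enzymes, sialyltransferases, sugar nucleotide supply, mucins, other carriers and enzymes that start other O-glycans. After siMED12, 0 of the 44 tested passed for LNCaP, 1 for 22Rv1 and 0 for PC3, where 0.416%, 1.84% and 0% of all tested genes passed. Without adjustment 2, 7 and 7 had a p under 0.05, as did 7.34%, 11.7% and 4.99% of all tested genes. DESeq2 gave the same counts in each line, and limma gave 0, 2 and 0. Median log2 differences were -0.03, 0.04 and -0.04. No pathway gene passed for a difference of the effect between lines, a test that 0.189% of all genes passed for 22Rv1 against LNCaP, 0.0284% for PC3 against LNCaP and 0.0946% for PC3 against 22Rv1, while DESeq2 and limma called 0 pathway genes. An unadjusted p under 0.05 was found for 3, 3 and 9 pathway genes and for 8.28%, 5.02% and 9.16% of all genes.

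The pathway gene that passed was MUC13, which encodes a transmembrane mucin of epithelial surfaces and so a substrate of these enzymes. It was at 31.2, 18.4 and 30.8 CPM in 22Rv1 siCtrl and 112 and 96.2 CPM in siMED12, with no overlap. It rose by 1.93 on the log2 scale (SE 0.26, adjusted p = 2.7e-05), and it passed in 22Rv1 under all 23 alternatives, with and without replicate 3. LNCaP libraries held 0 to 2 counts of it and PC3 libraries 0 to 4. MUC13 was the only 1 of 13 mucins to pass the filter on low counts, and MUC1 had at most 3 counts in a library, MUC5AC at most 9 and MUC5B at most 16. The difference of its effect between lines did not pass.

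In lists where none passed, the gene with the smallest p was as follows. For the core enzymes it was B3GNT3 in 22Rv1, with 1, 0 and 0 counts in siCtrl and 7 and 4 in siMED12 (adjusted p = 0.0870), a gene at 37.4 to 50.6 CPM in PC3 siCtrl. CD55, a complement regulator that carries O-glycans, was 46.8, 60.2 and 47.5 CPM in 22Rv1 siCtrl and 75.3 and 106 CPM in siMED12 (0.82, SE 0.27, adjusted p = 0.127), and it passed with the replicate block. GNPNAT1, of UDP-GlcNAc synthesis, was 99.3, 135 and 121 CPM in PC3 siCtrl and 185 and 149 CPM in siMED12 (0.51, SE 0.19, adjusted p = 0.891). ST3GAL1, the main sialyltransferase of core 1, was 376, 480 and 353 CPM in LNCaP siCtrl and 239, 354 and 305 CPM in siMED12 (-0.42, SE 0.15, adjusted p = 0.385). POGLUT3, of O-glucose addition, was at 0, 0 and 1 counts in 22Rv1 siCtrl and 3 and 4 in siMED12 (adjusted p = 0.318). B3GNT3, CD55 and POGLUT3 had higher siCtrl levels in PC3 than in 22Rv1, with 131 to 197 CPM for CD55 and 14.4 to 24.2 CPM for POGLUT3. Of the 6 PC3 markers, CAV1 and S100A6 also rose in 22Rv1 siMED12, by 1.64 (SE 0.31, adjusted p = 0.00206) and 1.30 (SE 0.32, adjusted p = 0.0228). CAV1 stood at 13.4 to 16.9 CPM in siCtrl, 34.99 CPM in siMED12 replicate 1 and 60.3 CPM in replicate 3. The 6 markers summed to 177 to 215 CPM in siCtrl, 208 CPM in siMED12 replicate 1 and 413 CPM in replicate 3, and their part in the 22Rv1 values was not tested. Read without replicate 3, the remaining markers went both ways. LGALS1 was at -1.15 (SE 0.38), VIM at -0.35 (SE 0.49), CD44 at 0.11 (SE 0.33) and ANXA1 at 1.81 (SE 0.98). Without 22Rv1 siMED12 replicate 3, CD55 came to 0.56 (SE 0.32, adjusted p = 0.558), CAV1 to 1.22 (SE 0.37, adjusted p = 0.116) and S100A6 to 0.58 (SE 0.36, adjusted p = 0.602), so that both marker calls were lost. B3GNT3 and POGLUT3 then had adjusted p-values of 0.128 and 0.595, and MUC13 still passed (2.03, SE 0.30, adjusted p = 1.3e-04).

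Between the control lines, pathway genes differed often, as did genes at large. Of the 44 tested, 15 were higher and 10 lower in 22Rv1 than in LNCaP, 21 higher and 8 lower in PC3 than in LNCaP, and 19 higher and 8 lower in PC3 than in 22Rv1. In the same comparisons 43.2%, 54.7% and 54.9% of all tested genes passed, in either direction. C1GALT1, which builds core 1, stood at 48.7 ± 4.38 CPM in PC3, 9.13 ± 3.98 in LNCaP and 6.24 ± 2.27 in 22Rv1 (n = 3 each), and as it passed the filter through PC3 no p-value is given. Its chaperone C1GALT1C1 was also higher in PC3 than in 22Rv1 (1.07, SE 0.25, adjusted p = 5.9e-04). GCNT1, which branches core 1 into core 2, ran the other way, at 47.8 ± 21.9 CPM in LNCaP, 10.7 ± 1.94 in 22Rv1 and 0.860 ± 1.49 in PC3. B3GNT3, which extends core 1, stood at 46.1 ± 7.57 CPM in PC3 and at 0 or 1 counts in the siCtrl libraries of the other lines.

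**Figure D5:**
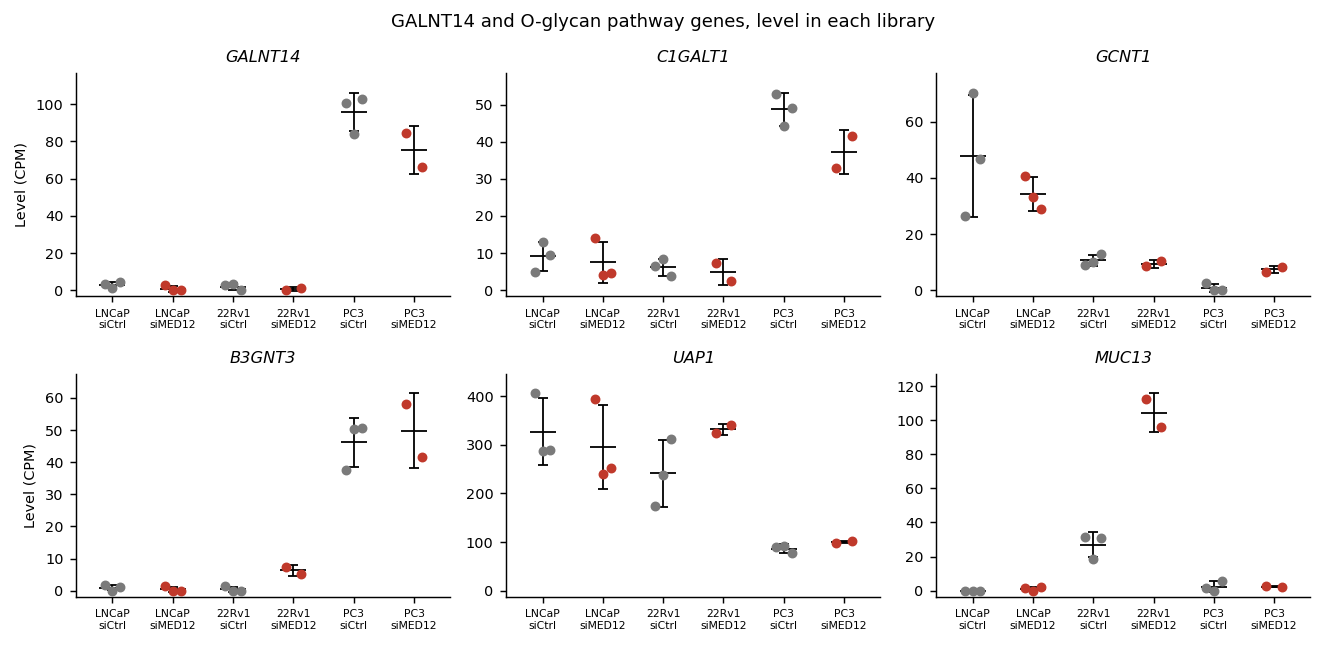
Level in CPM (vertical axes, each panel to its own scale) of GALNT14 and 5 O-glycan pathway genes in 16 libraries, grey for siCtrl and red for siMED12, with means (black marks) and 1 SD. GALNT14, C1GALT1 and B3GNT3 are highest in PC3, GCNT1 and UAP1 are lowest there, and MUC13 is counted in 22Rv1 and lies at 112 and 96.2 CPM in siMED12.

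Among sialyltransferases ST3GAL1 was highest in LNCaP, at 403 ± 67.5 CPM against 184 ± 4.05 in 22Rv1 and 172 ± 34.7 in PC3 (log2 differences -1.13 and -1.23, adjusted p = 5.6e-07 and 5.1e-08), and ST6GALNAC4 was highest in PC3, at 41.2 ± 5.16 CPM against 15.6 ± 2.76 and 14.8 ± 2.97. For sugar supply, UAP1, which makes UDP-GlcNAc, was lower in PC3, at 86.5 ± 8.63 CPM, than in LNCaP at 327 ± 68.2 (-1.90, SE 0.20, adjusted p = 1.3e-09) or 22Rv1 at 241 ± 68.8 (-1.47, SE 0.21, adjusted p = 3.3e-07). The carriers CD24, CD44 and CD55 were highest in PC3 and lowest in LNCaP, with PC3 minus LNCaP at 4.34, 6.29 and 5.06 on the log2 scale. Among enzymes of other O-glycans POMT1, of O-mannose, was highest in 22Rv1 (1.43, SE 0.27, adjusted p = 6.4e-05 against LNCaP), and POFUT1, of O-fucose, was highest in PC3 (0.93 against LNCaP, adjusted p = 0.00327).

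Finally, the genes whose levels followed GALNT3 most closely were named by the Pearson r of log2 CPM over the 16 libraries among the 6719 genes whose mean level reached 20 CPM. These points share lines and treatments, and the values are a description. SLC44A3 came first (r = 0.94, Spearman rho 0.91), followed by RDH11 (0.92), ECI2 (0.91), LGMN (0.91) and STIM1 (0.91). RDH11, a retinol dehydrogenase, was 238 ± 8.07 CPM in LNCaP siCtrl, 122 ± 19.4 in 22Rv1 and 216 ± 19.5 in PC3, the same order of lines as GALNT3. Once the mean of each line was subtracted, ITM2B led (r = 0.91), then CMTM6 (0.87), CD59 (0.87), CAT (0.87) and TMC4 (0.87). ITM2B, a transmembrane protein cut by furin, went from 379 ± 24.6 to 515 ± 71.7 CPM in LNCaP, from 383 ± 9.30 to 572 ± 11.9 in 22Rv1 and from 432 ± 11.2 to 391.7 ± 14.97 in PC3. CD59, a complement inhibitor, went from 39.0 ± 5.12 to 59.2 ± 8.85 CPM in LNCaP, from 31.9 ± 2.77 to 66.2 ± 0.679 in 22Rv1 and from 413 ± 92.6 to 366 ± 1.17 in PC3. Among the members themselves GALNT18 was nearest to GALNT3 over all libraries (r = 0.56) and GALNT2 after line means were subtracted (r = 0.61), where GALNT18 had -0.05.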

How the data were processed

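BRB-seq libraries, which tag the 3′ ends of messenger RNA, were aligned and counted by the authors with STARsolo on GRCh38.p13, and the deposited table gave raw counts per gene for 62703 genes in 16 libraries. Whether molecular identifiers were collapsed is not given in the sources used here. A second table, deposited by the authors as log2 CPM from edgeR, was used only for limma. From the counts, edgeR 4.0.16 (R 4.3.3) kept 10566 genes (filterByExpr, minimum count 10, total 15), applied TMM scaling and fitted the quasi-likelihood model with 6 group means over all 16 libraries. P-values were adjusted by Benjamini-Hochberg over all 10566 genes with a threshold of 0.05, and the SE was the log2 difference divided by the square root of F. CPM was the count over the effective library size, the total of the kept genes times its TMM factor. Intervals and floors cover counting error or the spread between libraries as stated, and floors were 3 counts.

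The members and gene lists were chosen with earlier results of these data known. Named pathway genes were, per list, those past the threshold after siMED12 or else the smallest p, and at most 3 with the largest line difference past the threshold and a mean of at least 20 CPM in the groups compared. The genes most like GALNT3 were the first 5 by Pearson r. Alternatives were DESeq2 1.42.0, limma 3.58.1, RLE scaling, no filter, each library left out, both replicate 3 siMED12 libraries of 22Rv1 and PC3 left out, and a replicate block, with edgeR's older quasi-likelihood method added after seeing the data. Same-numbered siCtrl and siMED12 libraries correlated in their deviations from the group means by 0.18, 0.13 and 0.13 in LNCaP, 0.19 and 0.25 in 22Rv1 and 0.12 and 0.08 in PC3. All pairs of replicates differed by more than sampling noise (variance ratio 1.60 to 3.43). The script was tested on simulated data. Loci and overlaps came from a Gencode annotation of GRCh38 and promoters from RefSeq. Values of 2 listed genes are not reported here.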

Additional observations from a re-analysis of the deposited data

How the results depend on the processing

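Because the choice of genes had fixed GALNT3, nothing is read from whether the count of members held or fell. The count of members past the threshold after siMED12 in LNCaP was 1 and fell to 0 under DESeq2 and under limma. Leaving out 1 library at a time it ran from 0 to 2: it was 0 without siCtrl replicate 1, 2 or 3 or siMED12 replicate 2, and 2 (GALNT2 and GALNT3) without siMED12 replicate 3. It stayed at 1 in 22Rv1 and 0 in PC3 under all 23 alternatives. Pathway genes past the threshold in 22Rv1 numbered 2 rather than 1 under limma (B3GNT3 and MUC13), 2 without the filter on low counts and 2 with the replicate block (CD55 and MUC13 in both). With the replicate block, 1 pathway gene (CD55) passed for a difference of the siMED12 effect between lines, against 0 without it. The replicate block changed no other siMED12 call among members and pathway genes and no member's call between siCtrl groups, and moved the calls over all genes from 44, 194 and 0 to 117, 312 and 20 in LNCaP, 22Rv1 and PC3. DESeq2 made 29, 85 and 0 such calls, limma 29 in LNCaP, the fit without both replicate 3 siMED12 libraries 111 in 22Rv1, and without the filter 95, 282 and 9 of 24803 genes passed. Leaving out 1 library gave 12 to 55, 74 to 220 and 0 to 3 calls, lowest without LNCaP siMED12 replicate 2 and without 22Rv1 siMED12 replicate 1. In PC3, leaving out siMED12 replicate 1 turned the log2 difference of GALNT6 to 0.24, of GALNT7 to 0.48 and of GALNT18 to 0.11. Differences between siCtrl groups of GALNT3 against 22Rv1, and of GALNT2 in PC3, passed under all alternatives. For GALNT18, which passed the filter through LNCaP and PC3, only the range is given. It ran from -2.19 to -1.75 for 22Rv1 minus LNCaP and from 1.88 to 2.30 for PC3 minus 22Rv1. With 2 or 3 libraries a group, the SE of a siMED12 difference ran from 0.17 (GALNT2 in PC3) to 0.54 (GALNT18 in 22Rv1) among the 7 members counted in all lines. The causes were not tested.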
